A study of Mus musculus with 6 samples.

Results

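The proteasome genes of mouse embryonic stem (ES) cells were described in 6 RNA sequencing libraries. They are the 49 gene symbols, among 23420 in the count table, that begin with Psm, a letter from a to g and a number. The name takes in 31 genes of the core and regulatory particles, 5 core subunits that are inducible or tissue-specific, 7 assembly chaperones and 5 activator or inhibitor genes. It also takes in Psmc3ip, which encodes a partner protein of recombinases in meiosis and matches by name only. All 49 had enough counts to be tested.

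The libraries compare ES cells stably transduced with a lentivirus for KBP(KK/RR) (replicates 4, 5 and 6) with ES cells stably transduced with a lentivirus for wild-type KBP (replicates 1, 2 and 3). Both groups were kept under self-renewing conditions, and the labels call the mutant stable. No untransduced cells were part of the comparison, and the labels do not give the promoter of the virus, the ES cell line or whether the 3 libraries of a group came from separate cultures. The p-values therefore measure the spread between these libraries, which may be technical.

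The proteasome is the barrel-shaped protease that degrades proteins marked with ubiquitin. Its core particle has alpha rings at the ends, which form the gate, and beta rings inside, which hold the proteolytic sites. A regulatory particle caps the core, with a base of ATPases that unfold substrates and a lid that removes ubiquitin. ES cells are known for high proteasome activity, and KBP, a partner of kinesin motors, is itself a substrate of ubiquitin-dependent turnover in these cells.

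Total counts were 24300832 to 29863560 in KBP(KK/RR) libraries and 24131743 to 32160411 in wild-type KBP libraries. The proteasome genes together took 0.833, 0.837 and 0.859% of counts in KBP(KK/RR) replicates 4, 5 and 6, against 0.805, 0.792 and 0.798% in wild-type KBP replicates 1, 2 and 3. The 8 ES cell markers summed to between 6150 and 6360 CPM (counts scaled to library size) in KBP(KK/RR) libraries and between 6230 and 6280 CPM in wild-type KBP libraries. The 6 feeder fibroblast markers summed to at most 16 CPM in KBP(KK/RR) and 17.1 CPM in wild-type KBP libraries, and the 5 leukocyte markers, with Lyz2 at 0, to 5.45 to 5.81 CPM in KBP(KK/RR) and 4.46 to 6.01 CPM in wild-type KBP libraries. The 4 neural markers summed to 112 to 123 CPM in KBP(KK/RR) and 113 to 117 CPM in wild-type KBP libraries. Most of that sum was Tubb3 (means 86.5 CPM in KBP(KK/RR) and 82.8 CPM in wild-type KBP). Of the neural markers 3 had a positive log2 fold change and 1 a negative one. Map2 was higher in every KBP(KK/RR) library (0.24, edgeR adjusted p = 0.13). Sox1 had the negative value, with groups that overlapped (-0.18, edgeR adjusted p = 0.191). The 6 primitive endoderm markers summed to 15.6 to 18.5 CPM in KBP(KK/RR) libraries and 18.1 to 21.3 CPM in wild-type KBP libraries. Of these 6, 5 had a negative log2 fold change (median -0.19). Pdgfra fell, with 1.38, 1.51 and 1.48 CPM in KBP(KK/RR) libraries, against 1.91, 2.555 and 2.50 CPM in wild-type KBP libraries (-0.68, SE 0.17, edgeR adjusted p = 0.0342), a larger log2 difference than that of any proteasome gene. Sox7 was lower in every KBP(KK/RR) library but did not pass the test (-0.46, edgeR adjusted p = 0.0949). Their part in the results below was not tested, and in bulk RNA fewer cells of a type and less RNA per cell cannot be told apart. The KBP gene itself, 2510003E04Rik, had 56.3, 59.6 and 53.9 CPM in KBP(KK/RR) libraries, against 48.35, 47.0 and 49.6 CPM in wild-type KBP libraries (log2 fold change 0.23, SE 0.05, edgeR adjusted p = 0.0133), and the count does not separate the endogenous gene from the vector. This call was lost when KBP(KK/RR) replicate 5 (edgeR adjusted p = 0.0735) or wild-type KBP replicate 2 (0.0908) was left out. The pluripotency genes Pou5f1, Nanog and Sox2 had log2 fold changes of -0.02, 0.10 and 0.05, and 0 of these 3 were called (0 by edgeR at an adjusted p under 0.05; adjusted p 0.865, 0.191 and 0.566). Over the 8 ES cell markers 4 log2 fold changes were positive and 4 negative. Every KBP(KK/RR) library was above every wild-type KBP library for Nanog and Dppa5a, and below for Esrrb (-0.09, edgeR adjusted p = 0.182) and Klf4 (-0.09, edgeR adjusted p = 0.208). On the second principal component wild-type KBP replicate 3 stood apart from replicates 1 and 2 (-16.29 against 10.65 and 8.868), and results without it are given below.

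Proteasome genes were a little higher in KBP(KK/RR) cells, and the alpha ring had the largest median difference of the roles with several genes. By edgeR's quasi-likelihood test with Benjamini-Hochberg adjustment over all genes, 3 of the 49 rose, Psma5, Psma6 and Psma1, and 0 fell. Of all 14340 tested genes, 1.05% were called higher and 2.07% lower at an adjusted p under 0.05. The rises of the 3 genes were between 10.8 and 14.5%. Of the 49 genes, 45 had a positive log2 fold change (KBP(KK/RR) over wild-type KBP), as did 49.2% of all tested genes. The median log2 fold change was 0.08 over the proteasome genes and -0.0022 over all genes tested.

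The same tilt was seen below the threshold for calls. An unadjusted p under 0.05 was reached by 18 proteasome genes on the higher side (36.7%), where the share over all tested genes was 8.32%. On the lower side 0 reached it, against 10.3% of all tested genes. In 26 proteasome genes (53.1%) every KBP(KK/RR) library lay above every wild-type KBP library, compared with 11.8% of all tested genes. The opposite order was found in 1, Psmg4 (2.04%), compared with 10.5% of all tested genes. Most proteasome genes are abundant, so the same was read among the 1849 tested genes whose mean log2 CPM was 7 or more, a bound chosen after the values were seen. Of the 33 proteasome genes in that range 93.9% had a positive log2 fold change, with a median of 0.08. Of all genes there it was 55.8%, with a median of 0.01. An unadjusted edgeR p under 0.05 was reached on the higher side by 15 of the 33 and 277 of the 1849. On the lower side it was reached by 0 and 246. Every KBP(KK/RR) library lay above every wild-type KBP library in 18 of the 33 and 349 of the 1849. The opposite order was found in 0 and 220. Both higher-side shares of all abundant genes exceeded those over all tested genes.

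**Figure D1:**
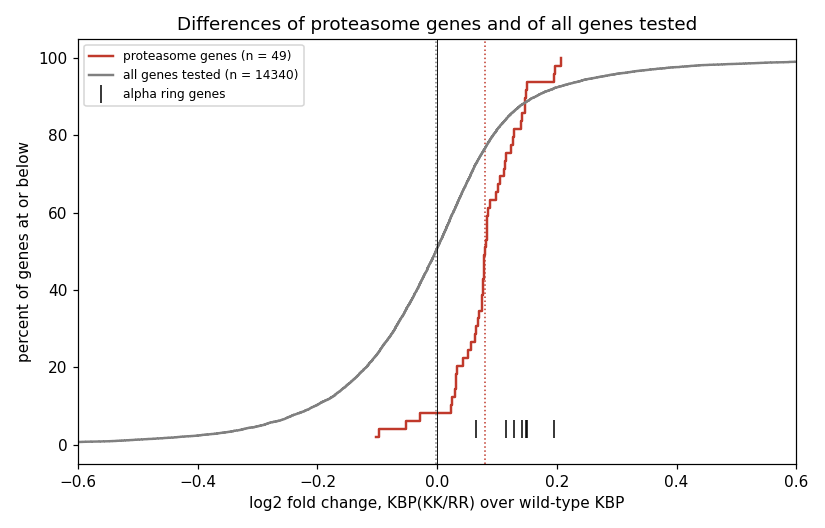
Cumulative share of genes (y axis, percent) by log2 fold change of KBP(KK/RR) over wild-type KBP (x axis), for the 49 proteasome genes (red) and all 14340 tested genes (grey); dotted lines are the medians and black ticks the 7 alpha ring genes. The red curve lies to the right of the grey one over most of its range, with a median of 0.08, and the alpha ring ticks run from 0.06 to 0.20.

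The alpha ring genes encode the 7 related subunits at each end of the core. Psma5 had 222, 223 and 227 CPM in KBP(KK/RR) replicates 4, 5 and 6, against 204, 192 and 190.4 CPM in wild-type KBP replicates 1, 2 and 3. All KBP(KK/RR) libraries were above all wild-type KBP libraries, and the difference passed the test (log2 fold change 0.20, SE 0.04, edgeR adjusted p = 0.00762). Psma6 had 212.5, 209 and 219.7 CPM in KBP(KK/RR) libraries, against 196, 194 and 188 CPM in wild-type KBP libraries. Its groups did not overlap either, with replicate 6 highest and wild-type KBP replicate 3 lowest (log2 fold change 0.15, SE 0.04, edgeR adjusted p = 0.0404). Psma1 had 171, 161.5 and 174 CPM in KBP(KK/RR) libraries, against 154, 150.3 and 152 CPM in wild-type KBP libraries. KBP(KK/RR) replicate 5 was the lowest of its group here but still above the wild-type KBP libraries (log2 fold change 0.15, SE 0.04, edgeR adjusted p = 0.0462).

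The other alpha ring genes did not pass the threshold, though 3 of the other 4 also had groups that did not overlap. Psma4 had 206.5, 195.5 and 205 CPM in KBP(KK/RR) libraries, against 184, 189 and 177 CPM in wild-type KBP libraries (log2 fold change 0.14, edgeR adjusted p = 0.0593). Psma7 had 183.5, 186 and 187.5 CPM in KBP(KK/RR) libraries, against 174, 169.8 and 166 CPM in wild-type KBP libraries (0.13, edgeR adjusted p = 0.0744). In both genes the closest libraries of the groups were several CPM apart. Psma3 had 245.5, 229 and 237 CPM in KBP(KK/RR) libraries, against 218, 221 and 218 CPM in wild-type KBP libraries (0.12, edgeR adjusted p = 0.115). Psma2 had 189, 179.9 and 199 CPM in KBP(KK/RR) libraries, against 177, 183 and 184 CPM in wild-type KBP libraries (0.06, edgeR adjusted p = 0.432). Psma2 was the alpha gene whose groups overlapped, with KBP(KK/RR) replicate 5 inside the wild-type KBP range. Ranked by p among the 49 genes, 6 of the 7 smallest values belonged to the alpha ring.

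Psma6 and Psma1 were near the threshold, while Psma5 was also called at an adjusted p under 0.01 and kept its call at 0.05 in 4 of 6 omissions of a library. With KBP(KK/RR) replicate 6 left out, 0 of the 49 were called by edgeR (12 higher and 0 lower at an unadjusted p under 0.05), and Psma5, Psma6 and Psma1 had adjusted p of 0.0656, 0.215 and 0.233. With wild-type KBP replicate 2 left out the count was also 0 (14 higher and 0 lower at an unadjusted p under 0.05; adjusted p 0.0555, 0.135 and 0.192 in the same genes). The shares of all tested genes at an unadjusted p under 0.05 were not taken in these fits, so the 12 and 14 have no background beside them. Calls over all tested genes also became fewer in these fits. Without KBP(KK/RR) replicate 6, 0.258% were called higher (37 genes, with 85 lower). Without wild-type KBP replicate 2 it was 0.405% (58 genes, with 116 lower), against 1.05% with all 6 libraries. Leaving out wild-type KBP replicate 1 kept the call of Psma5 and lost those of Psma6 (0.0598) and Psma1 (0.0742). Leaving out replicate 3 did the same (0.118 and 0.0928). Psma1 was lost when KBP(KK/RR) replicate 4 was left out (0.0551), and Psma6 when replicate 5 was (0.0583). DESeq2, run on all 6 libraries, called the same 3 genes, with Psma1 at the threshold itself (DESeq2 adjusted p = 0.05 as rounded). Of all genes given an adjusted p, DESeq2 called 0.803% higher. Of the 49, limma-voom called Psma5 alone, and of all tested genes it called 0.544% higher. The median log2 fold change of the alpha ring ran from 0.12 to 0.16 over the 6 omissions.

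Some reads of Psma5 may not be told apart from those of its pseudogenes, judged by shared 50-base windows and not by the reads themselves. In the GENCODE annotation 55.4% of the 50-base windows of its longest protein-coding transcript also lie in a transcript of another gene, mostly the processed pseudogene Gm8394. For Psma6, Psma1, Psma7, Psmc5 and Psmc2 the share was 0%. It was 31.5% for Psma4 and 22.0% for Psma3. Over the 49 genes 23 shared no window and 10 shared over 20%, among them Psmb5 (57.1%), Psmb3 (55.8%) and Psme2 (59.3%). How such reads were counted is not given in the sources used here, so the values of these genes are uncertain to that extent. Transcripts of Nek6 overlap Psmb7, those of Tap1 overlap Psmb9 and those of Mlx overlap Psmc3ip on the opposite strand, and the strand setting of the counting is not stated either.

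The sequences just before the start sites of the called genes, are shown because these genes carry the calls, with that of Psmb5, which holds one of the motifs searched. Each line gives 150 bases that end at the base before a RefSeq start on GRCm38.p6, 5′ to 3′ on the strand of the gene. Capitals mark any of 4 motifs searched on both strands: CCAAT, bound by NF-Y; TGACNNNGC, the core of the antioxidant response element bound by Nfe2l1 and Nfe2l2; CCGGAAGT, bound by ETS factors; and GCATGCGC, part of the site of nuclear respiratory factor 1. Psma5 lies at chr3:108256926-108279952, Psma6 at chr12:55384222-55418459 with 2 listed starts, Psma1 at chr7:114264550-114276116 and Psmb5 at chr14:54614120-54617995. The stretches are chr3:108256776-108256925 (plus strand), chr12:55384072-55384221 and chr12:55398675-55398824 (plus strand), chr7:114276117-114276266 (minus strand) and chr14:54617996-54618145 (minus strand).
Psma5: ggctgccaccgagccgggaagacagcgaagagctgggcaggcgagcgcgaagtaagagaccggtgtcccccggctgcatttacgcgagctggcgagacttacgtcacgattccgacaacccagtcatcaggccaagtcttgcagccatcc
Psma6, first start: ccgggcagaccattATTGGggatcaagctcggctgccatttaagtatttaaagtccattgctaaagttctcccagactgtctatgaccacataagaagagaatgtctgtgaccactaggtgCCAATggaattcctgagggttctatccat
Psma6, second start: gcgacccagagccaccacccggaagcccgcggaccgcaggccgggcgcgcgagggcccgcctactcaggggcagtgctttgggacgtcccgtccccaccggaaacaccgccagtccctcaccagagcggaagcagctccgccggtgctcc
Psma1: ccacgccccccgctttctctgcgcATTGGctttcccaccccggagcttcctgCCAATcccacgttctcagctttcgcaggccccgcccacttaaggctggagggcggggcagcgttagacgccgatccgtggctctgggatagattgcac
Psmb5: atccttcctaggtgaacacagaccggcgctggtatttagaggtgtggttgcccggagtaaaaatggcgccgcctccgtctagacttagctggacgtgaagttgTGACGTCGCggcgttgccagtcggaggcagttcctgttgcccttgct

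None of the 4 motifs stood in the stretch shown for Psma5 or for the second start of Psma6, whereas Psma1 and the first start of Psma6 each held 2 CCAAT matches. RefSeq windows, from 250 bases before to 50 after a start, were at hand for 41 of the 49 genes (44 windows). TGACNNNGC was found in 6 of these windows (13.6%), in 12.4% of all 32851 windows and in 14.3% of the windows of tested genes. The 6 belonged to Psmb5, Psmb6, Psmc6, Psmd12, Psmd9 and Psme4, and none to an alpha ring gene. CCAAT was found in 34.1% of the proteasome windows, 37.4% of all windows and 37.6% of the windows of tested genes. GCATGCGC was found in 6.82% of the proteasome windows, 2.71% of all windows and 5.09% of the windows of tested genes. CCGGAAGT was found in 10 proteasome windows (22.7%), against 3.89% of all windows and 7.19% of the windows of tested genes. Its matches lay in Psma6, Psmc1, Psmc2, Psmd12, Psmd13, Psmd6, Psme3, Psme4 and Psmg3. These are matches of letters, not binding sites.

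The constitutive beta ring genes, which include the 3 catalytic subunits Psmb5, Psmb6 and Psmb7, had 0 calls among 7. All 7 log2 fold changes were positive, from 0.03 to 0.10, with a median of 0.08. Psmb1, a non-catalytic beta subunit, had 169, 174 and 176.5 CPM in KBP(KK/RR) libraries, against 164, 163 and 158 CPM in wild-type KBP libraries (edgeR adjusted p = 0.186). Psmb6, the subunit with caspase-like activity, had 247, 261 and 263 CPM in KBP(KK/RR) libraries, against 240.1, 242 and 249.1 CPM in wild-type KBP libraries (edgeR adjusted p = 0.322). The groups were apart for Psmb1 and overlapped for Psmb6. Psmb5, the subunit with chymotrypsin-like activity and the target of bortezomib, had 153, 171 and 172 CPM in KBP(KK/RR) libraries, against 161, 164 and 162 CPM in wild-type KBP libraries. KBP(KK/RR) replicate 4 was the lowest of all libraries for Psmb5, and the fit gave 0.03 on the log2 scale (SE 0.04, edgeR adjusted p = 0.761). Psmb7, with trypsin-like activity, had a log2 fold change of 0.07 (edgeR adjusted p = 0.385). The non-catalytic Psmb2, Psmb3 and Psmb4 each stood at 0.08 (edgeR adjusted p = 0.266, 0.276 and 0.279), with groups apart in Psmb2 and Psmb3.

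The inducible catalytic subunits, which replace the constitutive ones in immunoproteasomes, were low in both groups. Psmb8, the counterpart of Psmb5, had 12, 12 and 10 counts in KBP(KK/RR) libraries and 7, 12 and 10 counts in wild-type KBP libraries. These sums, 34 counts (95% exact Poisson interval 23.5 to 47.5, counting error only) and 29 counts (19.4 to 41.6), were not distinguishable at this depth. Psmb9, the counterpart of Psmb6, had 60, 49 and 56 counts in KBP(KK/RR) libraries and 45, 57 and 38 counts in wild-type KBP libraries. On the CPM scale its groups did not overlap (2.02, 2 and 1.885 CPM in KBP(KK/RR), 1.72, 1.78 and 1.585 CPM in wild-type KBP libraries), but the SE was large (log2 fold change 0.21, SE 0.17, edgeR adjusted p = 0.532). Psmb10, the counterpart of Psmb7, was the most abundant of the 3, with 21.9, 25.6 and 24.4 CPM in KBP(KK/RR) libraries and 22.7, 22.7 and 23.9 CPM in wild-type KBP libraries (0.05, edgeR adjusted p = 0.718). On the per-length scale Psmb8 made up 0.117 ± 0.022% of Psmb8 plus Psmb5 in KBP(KK/RR) and 0.103 ± 0.022% in wild-type KBP libraries (SD, n = 3 each). Psmb9 made up 0.256 ± 0.017% of Psmb9 plus Psmb6 in KBP(KK/RR) and 0.232 ± 0.017% in wild-type KBP libraries. Psmb10 made up 17.3 ± 1.6% of Psmb10 plus Psmb7 in KBP(KK/RR) and 17.4 ± 0.22% in wild-type KBP libraries. The shares overlapped between the groups in each case. They depend on the transcript taken. By the longest protein-coding transcript (1160 bases, not 2849) Psmb7 was at 215 CPM per kilobase in KBP(KK/RR) libraries, against 87.5 by the longest transcript. Psmb10 stayed at 18.3, so its share would be smaller. In the same libraries Psmb9 was at 1.455 and not 0.682, and Psmb6 at 322 and not 266, so the share of Psmb9 would be larger.

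Psmb11, the beta subunit known from the thymic cortex, had 98 counts over the KBP(KK/RR) libraries (95% exact Poisson interval 79.6 to 119) and 103 over the wild-type KBP libraries (84.1 to 125). Psma8, the alpha subunit known from testis and a close relative of Psma7, averaged 16.0 ± 0.522 CPM in KBP(KK/RR) and 15.1 ± 0.747 CPM in wild-type KBP libraries (edgeR adjusted p = 0.575). Both had counts in every library, with only 28 to 40 for Psmb11. Of the 50-base windows of Psmb11, 2.95% also lie in transcripts of other genes (594 genes, on either strand). Whether reads of those genes add to its counts was not tested.

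The 6 ATPases of the base, which form the ring that threads substrates into the core, all had positive log2 fold changes, from 0.04 to 0.12, and 0 were called. Psmc5 had 269.7, 274 and 287 CPM in KBP(KK/RR) libraries, against 260.3, 251 and 251 CPM in wild-type KBP libraries (log2 fold change 0.12, SE 0.04, edgeR adjusted p = 0.0889). Psmc2 had 194, 186 and 195.5 CPM in KBP(KK/RR) libraries, against 179, 178 and 176 CPM in wild-type KBP libraries (0.11, SE 0.04, edgeR adjusted p = 0.118). The groups did not overlap in these genes or in Psmc3 and Psmc1. They did in Psmc6 (0.11, edgeR adjusted p = 0.191) and Psmc4 (0.04, edgeR adjusted p = 0.595). Psmc5 passed the threshold when KBP(KK/RR) replicate 4 was left out (edgeR adjusted p = 0.0425), and in none of the other 5 omissions. Calls over all tested genes also became more in that fit, with 1.38% called higher (198 genes, with 569 lower). With all libraries 1.05% were called higher (151 genes, with 297 lower).

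The 11 other subunits of base and lid had 10 positive log2 fold changes and 0 calls, with a median of 0.07. Psmd4, a ubiquitin receptor, had the largest (212, 221 and 229.7 CPM in KBP(KK/RR) libraries against 206, 207 and 204 CPM in wild-type KBP libraries; 0.10, SE 0.04, edgeR adjusted p = 0.160). Psmd2, a large scaffold of the base, had 594, 585 and 597 CPM in KBP(KK/RR) libraries, against 565, 551 and 577 CPM in wild-type KBP libraries (edgeR adjusted p = 0.317). In both genes the KBP(KK/RR) libraries were all higher. Psmd11, a lid subunit known for raising proteasome assembly in human ES cells, had 200.5, 205 and 207.5 CPM in KBP(KK/RR) libraries, against 192, 197 and 189 CPM in wild-type KBP libraries (0.08, edgeR adjusted p = 0.243). Psmd14, the lid's deubiquitinase, had a log2 fold change of 0.08 (edgeR adjusted p = 0.332). Psmd1 and Psmd13 were also higher in every KBP(KK/RR) library (0.08 each, edgeR adjusted p = 0.264 and 0.344), while Psmd12, Psmd7, Psmd6 and Psmd8 overlapped, with log2 fold changes of 0.06, 0.03, 0.03 and 0.02. Psmd3 was the member with a negative value (-0.03, edgeR adjusted p = 0.776), and its groups overlapped widely, from 281 to 305 CPM in KBP(KK/RR) and from 290 to 319 CPM in wild-type KBP libraries.

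The assembly chaperones help the core or the base to form and leave the finished particle. Of these 7 genes 6 had positive log2 fold changes and 0 were called. Psmd9, a chaperone of the base, had 36.9, 37.9 and 38.3 CPM in KBP(KK/RR) libraries, against 34.2, 33.7 and 34.4 CPM in wild-type KBP libraries (0.15, SE 0.05, edgeR adjusted p = 0.124). Psmd10, also a base chaperone and known as gankyrin, had a log2 fold change of 0.15 (SE 0.06, edgeR adjusted p = 0.194). Psmg1, which pairs with Psmg2 to assemble the alpha ring, had 67.9, 71.8 and 72.2 CPM in KBP(KK/RR) libraries, against 68.2, 63.7 and 68.9 CPM in wild-type KBP libraries (0.08, edgeR adjusted p = 0.394). The groups were apart for Psmd9 and Psmd10 and overlapped for Psmg1. Psmg2 itself had a log2 fold change of 0.13 (SE 0.05, edgeR adjusted p = 0.180) with groups that did not overlap. Psmd5, another base chaperone, was at 0.03 (edgeR adjusted p = 0.757). Psmg3 and Psmg4 form the other chaperone pair. Psmg3 had 19.4, 20.3 and 20.5 CPM in KBP(KK/RR) libraries, against 19.0, 19.0 and 18.85 CPM in wild-type KBP libraries (0.08, edgeR adjusted p = 0.499). Psmg4 had 9.24, 8.86 and 9.15 CPM in KBP(KK/RR) libraries, against 9.30, 9.72 and 10.2 CPM in wild-type KBP libraries. It was lower in every KBP(KK/RR) library, by a margin within the test's error (-0.10, SE 0.08, edgeR adjusted p = 0.557).

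The activators dock on the core in place of the regulatory particle, and Psmf1 encodes an inhibitor of the core. None of the 5 genes was called (0 at an unadjusted p under 0.05 in either direction, and 0 in DESeq2). Psmf1 had 44.5, 48.7 and 44.3 CPM in KBP(KK/RR) libraries, against 42.3, 42.6 and 43.0 CPM in wild-type KBP libraries (0.10, SE 0.05, edgeR adjusted p = 0.294). Psme3, the nuclear activator known as PA28 gamma, had 294, 299 and 296 CPM in KBP(KK/RR) libraries, against 294, 283 and 297 CPM in wild-type KBP libraries (0.02, edgeR adjusted p = 0.781). Psmf1 was higher in every KBP(KK/RR) library and Psme3 was not. The interferon-inducible pair Psme1 and Psme2 had log2 fold changes of 0.09 and 0.06 (edgeR adjusted p = 0.319 and 0.589). Psme4, the activator PA200, had 337, 308 and 310.3 CPM in KBP(KK/RR) libraries and 318, 342 and 331 CPM in wild-type KBP libraries (-0.05, SE 0.04, edgeR adjusted p = 0.547). Psmc3ip, matched by name only, had 24.2, 22.1 and 24.4 CPM in KBP(KK/RR) libraries and 23.4, 21.6 and 19.3 CPM in wild-type KBP libraries, with groups that overlapped (0.14, SE 0.07, edgeR adjusted p = 0.285).

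**Figure D2:**
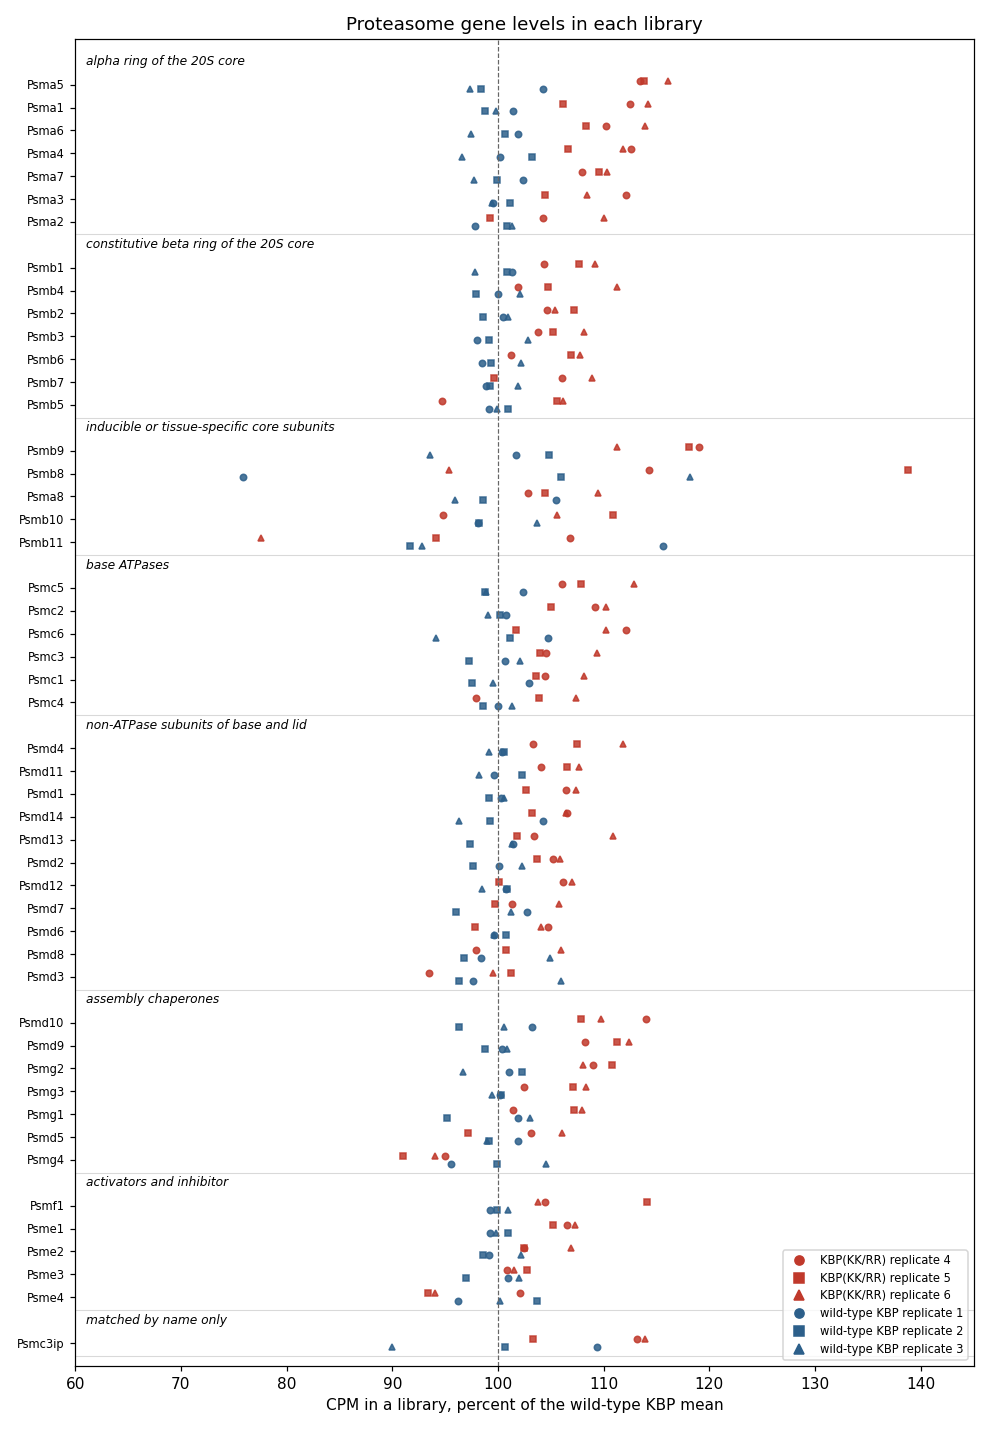
Level of each of the 49 genes in each library as a percent of its wild-type KBP mean (x axis), with genes in rows by role and ordered by log2 fold change within a role; red marks are KBP(KK/RR) and blue marks wild-type KBP libraries. Red marks lie to the right of all blue marks in 26 rows, and the wide rows of Psmb8 and Psmb11 are the genes with the fewest counts.

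Summed over a role with several genes, the ratio was largest for the alpha ring. Its genes summed to 1430, 1383 and 1450 CPM in KBP(KK/RR) libraries, against 1307, 1300 and 1275 CPM in wild-type KBP libraries, a ratio of means of 1.098. The sums of the beta ring (1447, 1483 and 1528 CPM in KBP(KK/RR), 1402, 1402 and 1430 CPM in wild-type KBP libraries, ratio 1.053) and of the base ATPases (1428, 1422 and 1491 CPM in KBP(KK/RR), 1385, 1344 and 1354 CPM in wild-type KBP libraries, ratio 1.063) also did not overlap between the groups. The same held for the other subunits of base and lid (ratio 1.04) and the assembly chaperones (1.055). The activators and inhibitor summed to 763, 743 and 739.7 CPM in KBP(KK/RR) libraries and 737, 751 and 755 CPM in wild-type KBP libraries, with a ratio of 1.001. No test was made between roles, and the sums weigh abundant genes most.

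Within KBP(KK/RR), replicate 6 was the highest library for 32 of the 49 genes, and replicates 4 and 5 for 10 and 7. Within wild-type KBP no library stood out in this way, with replicates 1, 2 and 3 highest for 17, 12 and 20 genes. Neither these ranks nor those over all 6 libraries were taken over all tested genes. KBP(KK/RR) replicate 6 was the highest of all 6 libraries for 32 of the 49 genes, and replicates 4 and 5 for 7 and 6. The lowest library was wild-type KBP replicate 3 for 17 genes, replicate 2 for 16 and replicate 1 for 7. Leaving out KBP(KK/RR) replicate 6 gave a median log2 fold change over the 49 genes of 0.06, with 45 positive, and over the other omissions it ran from 0.07 to 0.09.

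The fold changes also moved with transcript length. Their relation to GC content alone was not tested. The longest transcripts of the proteasome genes had a median of 1907 bases, against 3333 bases for all tested genes with a length. Across the 14204 tested genes with a length, length and log2 fold change had a Spearman rho of -0.205, and across the 49 proteasome genes -0.161. These are descriptions across genes of the same libraries, not of independent samples. Once each library was adjusted for length and GC content by a spline, 43 of the 49 log2 fold changes became smaller, 43 were positive, and the median was 0.0489, against 0.005 over all genes. Psma5 stayed called (log2 fold change 0.14, edgeR adjusted p = 0.00644), Psma6 (0.08, 0.116) and Psma1 (0.07, 0.221) were not, and Psma7 was (0.14, 0.0120). Of all 14204 genes in this fit 52.2% had a positive log2 fold change. Of these genes 311 (2.19%) were called higher and 374 lower. The alpha ring median was then 0.0705, close to those of the assembly chaperones (0.0652) and the base ATPases (0.0643), where before the adjustment they were 0.14, 0.08 and 0.10. The median was 0.0307 for the beta ring, 0.0489 for the inducible or tissue-specific subunits, 0.0238 for the other subunits of base and lid and 0.018 for the activators and inhibitor.

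**Figure D3:**
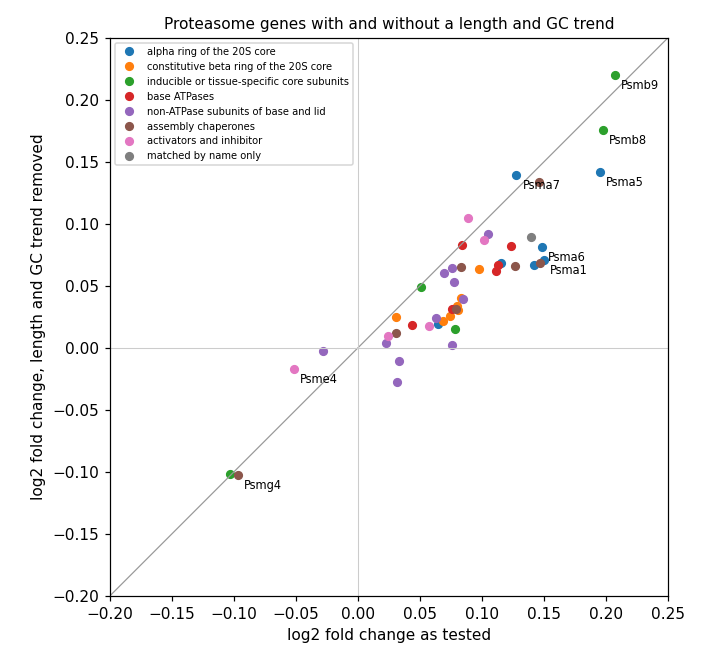
Log2 fold change of each proteasome gene (KBP(KK/RR) over wild-type KBP) as tested (x axis) and after adjustment for transcript length and GC content (y axis), coloured by role; the diagonal marks equal values. Of the 49 points 43 lie below the diagonal; Psma5 moved to 0.14, and Psma7 stayed near the line.

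Other genes of the pathway, in 5 lists, were evenly split in direction. Of 52 tested, 0 were called by edgeR and 26 had a positive log2 fold change, with a median of 0.01. At an unadjusted p under 0.05 there were 4 on the higher side and 3 on the lower side, and DESeq2 called 0. Of all tested genes, edgeR called 1.05% higher and 2.07% lower, and 49.2% had a positive log2 fold change. The shares of all tested genes at an unadjusted p under 0.05 were 8.32% higher and 10.3% lower. Proteasome subunits and partners that carry other names had a median of 0.04 over 12 genes, with 8 positive. They include the assembly factor Pomp, the ubiquitin receptor Adrm1 and the deubiquitinases Uchl5 and Usp14. The subunit genes Adrm1 and Shfm1 had log2 fold changes of -0.04 and 0.03 (edgeR adjusted p = 0.654 and 0.784). Shuttle and extraction factors, such as Rad23b, Ubqln1 and Vcp, had a median of -0.02, with 4 of 12 positive. The medians were 0.01 over 12 transcription regulators, 0.02 over 6 ubiquitin and E1 genes and 0.0049 over 10 genes of class I antigen presentation. Nfe2l1, the transcription factor known to raise proteasome genes when proteasome activity is low, had a log2 fold change of -0.06 (SE 0.04, edgeR adjusted p = 0.434), and Nfe2l2 of -0.00 (SE 0.05, edgeR adjusted p = 0.975). The activity of these factors was not measured. Of the 12 regulators 6 were positive and 6 negative. At an unadjusted edgeR p under 0.05, 1 was higher, Nfyb (0.11, edgeR adjusted p = 0.223), and 1 lower, Mafg. The 3 genes with the smallest p in these lists were the lectin chaperone gene Calr, the ubiquitin and ribosomal fusion gene Rps27a and the small Maf gene Mafg. Calr had 867, 869 and 866.5 CPM in KBP(KK/RR) libraries, against 924, 915 and 975.1 CPM in wild-type KBP libraries (-0.11, SE 0.04, edgeR adjusted p = 0.0965). Its groups did not overlap, and it was called lower after the adjustment for length and GC content. Rps27a had 808.5, 791 and 829 CPM in KBP(KK/RR) libraries, against 786, 774 and 704 CPM in wild-type KBP libraries (0.10, SE 0.04, edgeR adjusted p = 0.188). Mafg had 33.2, 38.1 and 36.8 CPM in KBP(KK/RR) libraries, against 43.1, 39.2 and 37.0 CPM in wild-type KBP libraries (-0.14, SE 0.06, edgeR adjusted p = 0.209), with groups that overlapped. The antigen transport gene Tap1, next to Psmb9 and known to share its interferon response, had a log2 fold change of 0.02 (edgeR adjusted p = 0.914).

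Levels were set side by side per length, as CPM per kilobase of the longest transcript. Among the 49 genes, the 31 of the core and regulatory particles lay between 55.3 (Psmc2) and 266 (Psmb6) in KBP(KK/RR) libraries on this scale. In wild-type KBP libraries they lay between 51.2 and 252. Within the alpha ring Psma6 was highest (205 ± 5.35 in KBP(KK/RR), 185 ± 4.17 in wild-type KBP; SD, n = 3 each) and Psma2 lowest (65.1 ± 3.36 in KBP(KK/RR), 62.2 ± 1.2 in wild-type KBP). The longest transcript of Psma2 has 2911 bases, against 1042 bases for Psma6. The assembly chaperones were lower, from 8.36 ± 0.242 (Psmg3) to 67.7 ± 2.27 (Psmg1) in KBP(KK/RR) libraries. Among the activators Psme3 was highest (111 ± 1.03 in KBP(KK/RR), 109 ± 2.87 in wild-type KBP) and the inhibitor gene Psmf1 lowest (12.03 ± 0.648 in KBP(KK/RR), 11.2 ± 0.0974 in wild-type KBP). Psmb8 was the lowest of all 49 genes (0.215 ± 0.0403 in KBP(KK/RR), 0.185 ± 0.0402 in wild-type KBP). With the median transcript length in place of the longest, Psmd2 was at 899 in KBP(KK/RR) and 856 in wild-type KBP libraries, where the longest transcript gave 197 and 188, so the order among subunits depends on the transcript taken.

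**Figure D4:**
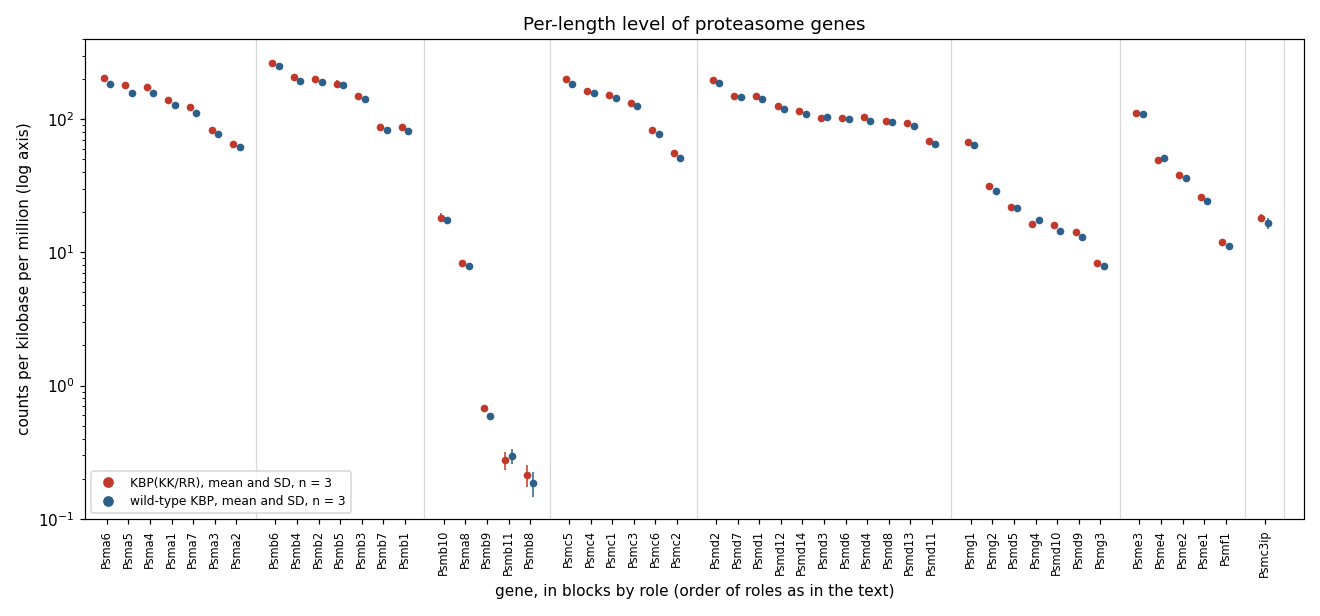
Per-length level of each proteasome gene (y axis, CPM per kilobase of the longest transcript, log axis) as mean and SD of 3 KBP(KK/RR) libraries (red, left) and 3 wild-type KBP libraries (blue, right), in blocks by role. Core and regulatory particle genes lie between 51.2 and 266, and Psmb8, Psmb9 and Psmb11 lie below 1.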

How the data were processed

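RNA depleted of ribosomal RNA (RiboZero) went into ScriptSeq v2 libraries, per the labels' protocols. The submitters' processing notes name bcl2fastq, TopHat, HTSeq and DESeq2 and the build mm10 (GRCm38). Versions, annotation and strand setting were not given there or in the labels. The authors deposited raw counts per symbol and a normalized signal. Dividing that deposited signal by its step gave whole reads for 100% of 105114 values above 0 (tolerance 0.01), 0 of which differed from the raw counts, and edgeR called 448 genes on them, as on the counts.

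Counts were tested with edgeR 4.0.16 (R 4.3.3; filterByExpr, TMM, robust quasi-likelihood fit, glmQLFTest), adjusted over 14340 genes, with calls at 0.05. The SE was taken as the size of the log2 fold change over the root of F. CPM uses TMM-scaled totals. Genes were matched to RefSeq GRCm38.p6, and lengths came from GENCODE M21. Replicates differed beyond counting noise (chi-square per degree of freedom 2.70 to 7.17). The test was checked on simulated data. Genes and lists were chosen with earlier results of these data known; library values are given for called genes, the 8 smallest p, the per-length extremes of each role and Psmb8 to Psmb10, and for others chosen after their values were seen. Alternatives were DESeq2 1.42.0, limma 3.58.1, other scalings, filters and thresholds, adjustment of each library for length and GC content (splines, 5 degrees of freedom), and each library left out. The test on recovered reads and the protein-coding length were chosen after seeing the data.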

Additional observations from a re-analysis of the deposited data

How the results depend on the processing

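The 3 proteasome genes called became 1 with limma-voom, with limma on the log2 normalized signal (pseudocount 1) and at an adjusted p under 0.01, 5 with upper-quartile scaling and 6 at 0.1, and ran from 0 to 4 when each library was left out. The 448 calls over all genes became 270 and 279 in the 2 limma fits, 966 with no filter on low counts, 685 with the trend on length and GC content removed, 130 at 0.01 and 823 at 0.1, and ran from 122 to 767 with a library left out. Upper-quartile scaling turned their share on the higher side to 53.4%, against 33.7%, and moved the median of all genes to 0.02 and that of the proteasome genes to 0.10. Of all tested genes 1.64% were called higher with that scaling and 2.15% at an adjusted p under 0.1, against 1.05% in the main fit. Among the other pathway genes 1, Calr, was called with the trend removed and 1 at 0.1. The median over proteasome genes was 0.0489 with the trend removed, and otherwise 0.06 to 0.10. Without dividing by length the shares of Psmb8, Psmb9 and Psmb10 in KBP(KK/RR) libraries were 0.248, 0.761 and 8.78%. The median per-length level over the genes, 94.3 by the longest transcript, was 176 by the median and 102 by the longest protein-coding transcript. Signs turned for Psmd6 (-0.0275) and Psmd7 (-0.011) with the trend removed. With a library left out they turned for Psmd3 (-0.0512 to 0.0151), Psmb11 (-0.2264 to 0.0191) and Psmd8 (-0.0097 to 0.0572). The causes were not tested. No paired analysis was possible because the groups share no replicate number. Depth limits Psmb8, Psmb9 and Psmb11 most.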
